A study of Mus musculus with 6 samples.

Results

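The integrin chains, the main selectin ligand, immunoglobulin-type adhesion receptors and integrin activators of leukocytes were followed in a pair of sorted mouse progenitor populations. The members were fixed by name: 15 integrin alpha chains, 8 integrin beta chains, the selectin ligand Selplg, the hyaluronan receptor Cd44, 8 immunoglobulin superfamily ligands and junction molecules and 2 integrin activators. All 35 symbols matched 1 row each of the 22271 genes in the deposited table. No selectin gene is among them, and the genes of selectin ligand synthesis are described below. Both populations were bone marrow cells of the mouse strain C57BL/6JRj, isolated by flow cytometry, and every sample title carries the label WT. No treatment, transgene, age or sex is given in the sources used here. The population labelled CD27 high MODP and the population labelled CD27 low MOP had 3 libraries each, with 10701425 to 15892640 counts per library.

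Integrins are heterodimers of an alpha and a beta chain that hold cells to matrix and to other cells. On resting leukocytes they are mostly inactive, and talin and kindlin-3 bind the tails of the beta chains and switch them on. Selectins catch rolling cells through sialylated and fucosylated mucins, chiefly the product of Selplg, before integrins bind firmly to ICAM and VCAM molecules. In the marrow, the same receptors keep progenitors in their niche, and Itgb3 has a long-known place in the sealing zone of osteoclasts.

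Levels are given in CPM, counts per 1000000 with library sizes scaled by edgeR's TMM method, and levels of different genes are compared only as CPM per kilobase of exon. The sort gene Cd27 stood at 35.4, 38.9 and 38.7 CPM across MODP replicates 1 to 3 and at 4.57, 3.52 and 3.64 CPM across MOP, as the labels say. Replicate 2 of each group stood apart on the second principal component, which held 19.9% of the variance. In those 2 libraries the sum of 10 neutrophil markers was highest, at 17042 and 12055 CPM against 2207 to 5170.0 CPM in the other 4. The sum of 10 endothelial and stromal markers was also highest there, at 3113 and 420.4 CPM against 23.9 to 116 CPM, and most of it there was Col1a1 and Col1a2. These sums are given again beside several members, and their part in the levels of those members was not tested. In bulk libraries, fewer cells of a type and less RNA per cell cannot be told apart.

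MOP carried more transcript of 8 integrin chains, of Selplg and Cd44 and of the activator Tln1 than MODP, and less of Icam2. Of the 35 members, 32 passed the filter on low counts. Of these, 11 were higher in MOP and 1 was lower in the quasi-likelihood test of edgeR, adjusted over all 12850 tested genes by the Benjamini-Hochberg method, and 20 did not pass the threshold of 0.05. Over all tested genes, 16.3% were called higher and 14.9% lower. The median log2 fold change of the tested members was 0.24, beside -0.0075 over all tested genes. The groups were apart, with no overlap of their libraries, for 18 members, 14 higher and 4 lower, where 23.8% of all tested genes were apart in each direction.

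These counts and their backgrounds moved with the fit. Without MODP replicate 3, 7 members were higher and 2 lower, where 11.8% and 9.92% of all tested genes were. Without MODP replicate 1 the members numbered 8 and 1 (11.2% and 9.62% of all genes), and without MOP replicate 1 also 8 and 1 (9.75% and 7.89%). Without MODP replicate 2 they numbered 11 and 2 (19.3% and 17.4%), without MOP replicate 2 10 and 3 (12.2% and 10.3%), and without MOP replicate 3 9 and 1 (12.2% and 10.2%). With replicate 2 of both groups left out, 13 were higher and 3 lower (18.4% and 15.6%). The column number as a replicate block gave 11 and 3 (21.2% and 19.8%), and the number in the sample titles 12 and 3 (19.6% and 18%). DESeq2 gave 10 and 1 (16.2% and 13.2%), no filter on low counts 10 and 1 (9.2% and 8.33%), and a filter of 1 CPM in 3 libraries 11 and 1 (16.5% and 15.9%). Upper-quartile scaling gave 10 and 2 and turned the split over all genes to 13.2% higher and 19.1% lower. The share of members called higher was above the share of all genes in each of these fits. The fits draw on the same libraries, and the members were chosen with earlier results of these data known. Counting both directions, 31.2% of all tested genes were called and 47.6% had groups apart.

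**Figure D1:**
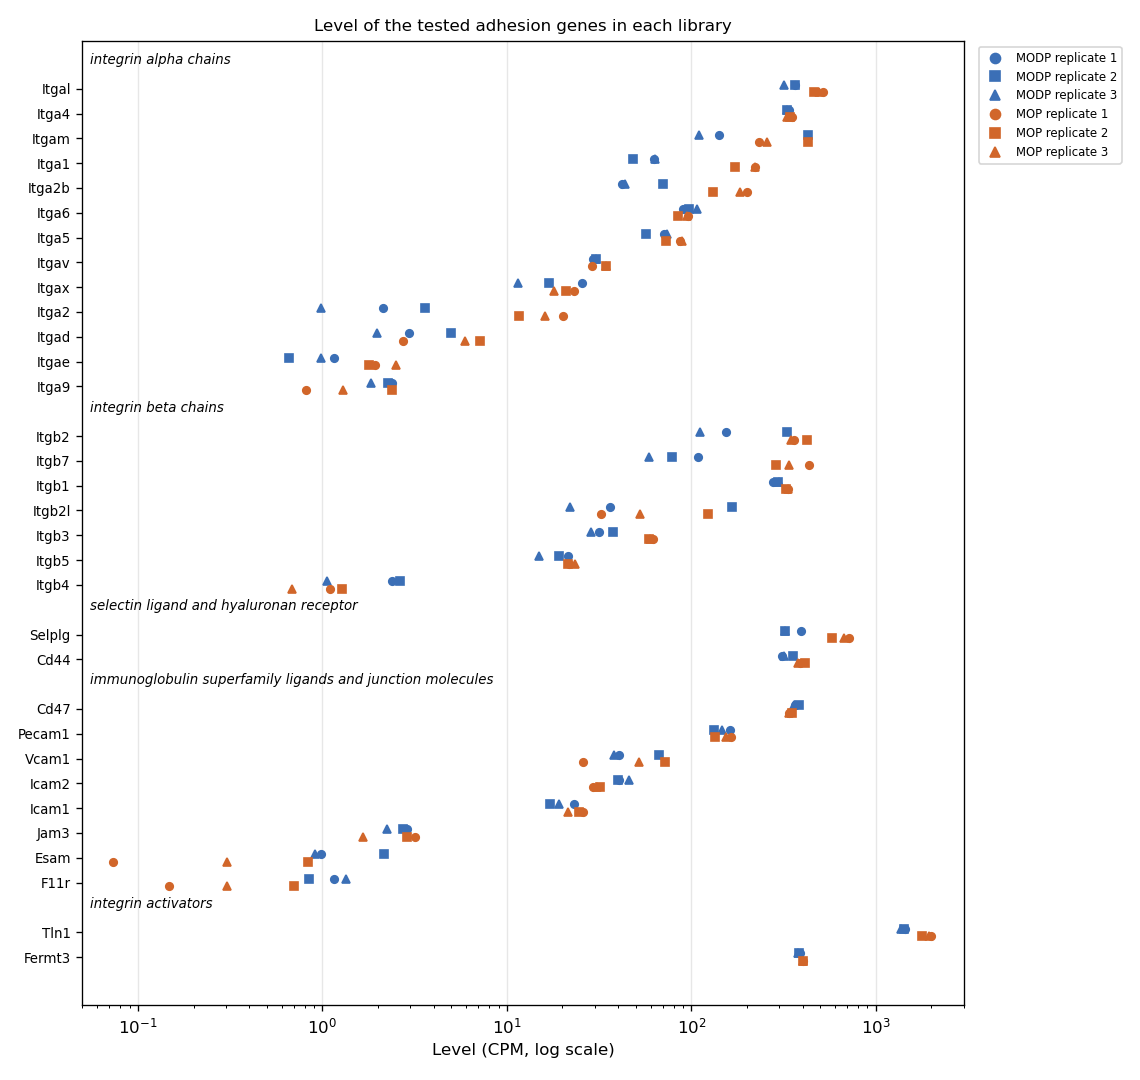
Level of each of the 32 tested members in each library, in CPM on a log axis, grouped by role and ordered by the MOP mean; blue marks are MODP and orange marks MOP, with a marker shape for each replicate. Itga1, Itga2b and Itgb7 lie well apart between the groups, and Itgam and Itgb2l are highest in replicate 2 (squares) of both.

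The collagen receptor chains Itga1 and Itga2, which both pair with Itgb1, were among the members that differed most. Itga1 stood at 63.1, 48.0 and 63.3 CPM across MODP replicates 1 to 3 and at 222, 172 and 220.3 CPM across MOP. Every MOP library was above every MODP library, a 3.52-fold difference (log2 fold change 1.81 ± 0.15 SE, edgeR adjusted p = 0.00052). Within replicate numbers 1, 2 and 3, the log2 ratio of MOP to MODP was 1.81, 1.84 and 1.80, so the size of the difference hardly varied between the pairs. Itga2 was low in MODP, at 2.14, 3.57 and 0.984 CPM, and stood at 20.1, 11.6 and 16.2 CPM across MOP. The groups did not overlap, with a log2 fold change of 2.87 ± 0.43 (SE; edgeR adjusted p = 0.0042), the largest of the tested members. Its smallest within-number log2 ratio was 1.70, in number 2. Itgb1, the shared partner, rose by much less, from 277, 295 and 298 CPM to 335, 324 and 332 CPM (log2 fold change 0.19 ± 0.05 SE, edgeR adjusted p = 0.026). Its groups did not overlap, but the call did not hold in 5 of the 6 fits that left out a library (the exception left out MODP replicate 2; range of edgeR adjusted p 0.0196 to 0.108 over the 6), under upper-quartile scaling (edgeR adjusted p = 0.0841) and with no filter on low counts (edgeR adjusted p = 0.0516). As CPM per kilobase, Itga1 was at 0.0357 to 0.04998 of the Itgb1 level in MODP libraries and at 0.117 to 0.146 in MOP libraries.

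Itga2b and Itgb3 together form the fibrinogen receptor of platelets, and Itga2b marks early progenitors as well, where it is known as CD41. Itga2b stood at 41.8, 70.3 and 43.6 CPM across MODP and at 200.5, 131 and 184 CPM across MOP. The groups did not overlap, and the difference was 3.32-fold (log2 fold change 1.73 ± 0.28 SE, edgeR adjusted p = 0.010). It was smallest in number 2, at a log2 ratio of 0.90 against 2.26 and 2.08, and the call was lost once the replicate number was blocked (edgeR adjusted p = 0.0845) and without MODP replicate 3 (edgeR adjusted p = 0.0502). Itgb3, which also pairs with Itgav as the vitronectin receptor of osteoclasts, stood at 31.7, 37.7 and 28.4 CPM across MODP and at 61.9, 58.8 and 59.9 CPM across MOP. Its 3 MOP values lie close together and above all of MODP (log2 fold change 0.89 ± 0.10 SE, edgeR adjusted p = 0.00069). Itgav itself was at 29.4, 30.3 and 30.5 CPM across MODP and at 29.0, 34.3 and 34.5 CPM across MOP, and did not pass the test (log2 fold change 0.12, 95% confidence interval -0.08 to 0.32, edgeR adjusted p = 0.36). Itgb5, another of the partners of Itgav, differed by 0.27 ± 0.13 (SE) on the log2 scale and did not pass either (edgeR adjusted p = 0.16).

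Markers of other cell types were set beside the rise of Itga2b. Of 10 megakaryocyte and platelet markers, 9 were in the table and 0 were called higher by edgeR. Their sum was 26.6 to 66.6 CPM across MODP and 14.5 to 28.1 CPM across MOP. The platelet factor gene Pf4 was at 4.69 to 13.2 CPM across MODP and 1.47 to 4.03 CPM across MOP, and no MOP library reached the MODP range, although it missed the threshold (edgeR adjusted p = 0.050). Of 10 basophil and mast cell markers, 7 were called higher, as Itga1, Itga2, Itga2b and Itgb7 were, and the sum of the list was 513 to 1086 CPM across MODP and 3153 to 5001 CPM across MOP. The mast cell protease genes Tpsb2 and Cma1 were at or near 0, with at most 0.282 CPM in any library. Hdc of the same list was well expressed but overlapped between the groups. It stood at 169 to 196 CPM across MODP and 190 to 232 CPM across MOP (edgeR adjusted p = 0.18). The part of these cells in the rise of the 4 integrin chains was not tested.

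Itgb7, the beta chain of the gut-homing integrin formed with Itga4 and of the E-cadherin receptor formed with Itgae, had the second largest log2 fold change of the tested members. It stood at 109, 78.2 and 59.0 CPM across MODP and at 436, 289 and 339.9 CPM across MOP. The groups were far apart, with a 4.33-fold difference (log2 fold change 2.11 ± 0.29 SE, edgeR adjusted p = 0.0063). The within-number log2 ratios were 2.00, 1.89 and 2.53. Without replicate 2 of both groups the log2 fold change was 2.21, but the edgeR adjusted p was 0.0608.

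The partners of Itgb7 did not share this size of change. Itga4 hardly differed between the libraries, at 336, 330.5 and 332 CPM across MODP and 349, 343 and 329.8 CPM across MOP (log2 fold change 0.03, 95% confidence interval -0.08 to 0.15, edgeR adjusted p = 0.65). Itgae was near the lower end of detection, with 7 to 14 counts in MODP libraries and 26 to 33 in MOP libraries. It was higher in MOP without overlap (1.15, 0.658 and 0.984 against 1.91, 1.79 and 2.50 CPM; edgeR adjusted p = 0.027), but the call did not hold in 5 of the 6 fits that left out a library (the exception left out MOP replicate 2; edgeR adjusted p 0.0496 to 0.100 over the 6), and with DESeq2 (adjusted p = 0.0761). As CPM per kilobase, Itgb7 was 0.898 to 1.63 times Itga4 in the MODP libraries and 4.25 to 6.30 times Itga4 in the MOP libraries. It was below Itgb1 in every MODP library (ratio 0.292 to 0.579) and above it in every MOP library (1.31 to 1.92). Part of Itga4 is annotated opposite to exons of Cerkl, and reads of both strands may be mixed there.

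The stretches upstream of Itga2b and Itgb7 are printed because these are 2 of the most changed abundant chains. Each is the 250 bases before the RefSeq start site in build GRCm38.p6, written from 5′ to 3′ in the direction of the gene: chr11:102469884-102470133 (- strand) for Itga2b and chr15:102231936-102232185 (- strand) for Itgb7. Capitals mark matches to any of 4 short motifs on either strand: AGATAA, which GATA factors bind; GAGGAA, which ETS factors bind; TGTGGT, which RUNX factors bind; and GGGCGG, the GC box.
Itga2b: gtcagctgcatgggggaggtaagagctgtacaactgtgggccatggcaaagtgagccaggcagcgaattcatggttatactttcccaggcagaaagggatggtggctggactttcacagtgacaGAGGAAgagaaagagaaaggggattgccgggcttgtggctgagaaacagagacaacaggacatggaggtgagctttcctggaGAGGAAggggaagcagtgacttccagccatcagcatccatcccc
Itgb7: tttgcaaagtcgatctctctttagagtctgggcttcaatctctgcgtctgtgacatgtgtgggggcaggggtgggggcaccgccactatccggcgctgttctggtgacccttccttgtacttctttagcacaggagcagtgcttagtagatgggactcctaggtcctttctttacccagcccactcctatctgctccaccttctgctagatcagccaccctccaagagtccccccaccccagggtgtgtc
The Itga2b window holds GAGGAA 2 times and none of the other letters, and the Itgb7 window holds none of the 4 motifs, which says only that these letters are not in that window. Of 32851 RefSeq windows of the same length, 9.99% held the GATA letters, 23.3% the ETS letters, 14% the RUNX letters and 32.7% the GC box. The table had windows for 21 of the 35 members, 23 windows in all, of which 2, 10, 3 and 11 held them in the same order. Itga3 and Cd47 had 2 windows each. Those of Cd47 start at 49855404 and 49855411 and overlap, so its GC boxes are counted in both.

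The leukocyte integrins share the beta chain Itgb2 and take Itgal, Itgam, Itgax or Itgad as the alpha chain. Itgal, the alpha chain of LFA-1, which binds ICAM molecules, was the most abundant alpha chain per kilobase of exon except in the MODP and MOP libraries of replicate 2, where Itgam was. It stood at 362, 365 and 319 CPM across MODP and at 515, 464 and 490.5 CPM across MOP, with every MOP library higher (log2 fold change 0.49 ± 0.07 SE, edgeR adjusted p = 0.0017). Itgb2 was at 154, 329 and 111 CPM across MODP and at 361, 423 and 348 CPM across MOP. Its groups did not overlap either, but MODP replicate 2 lay close to the MOP range and the test was not passed (log2 fold change 0.93 ± 0.46 SE, 95% confidence interval -0.28 to 2.15, edgeR adjusted p = 0.20). Without MODP replicate 2 the log2 fold change was 1.51 with an edgeR adjusted p of 0.00405, and without replicate 2 of both groups it was 1.42 with 0.00545. The summed alpha partners stood at 1.35 to 2.01 times Itgb2 in MODP and at 1.10 to 1.17 times in MOP, as CPM per kilobase.

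Itgam, the alpha chain of the complement receptor Mac-1, and Itgb2l, a leukocyte beta chain close in kind to Itgb2, peaked in replicate 2 of each group. Itgam was at 142, 427 and 110 CPM across MODP and at 233, 428 and 258 CPM across MOP. Replicate 2 of both groups was nearly equal, while the other numbers had log2 ratios of 0.71 and 1.23. Itgb2l was at 36.3, 165 and 22.1 CPM across MODP and at 32.2, 123 and 52.6 CPM across MOP, and its log2 fold change of -0.09 had a 95% confidence interval from -2.82 to 2.64. Neither passed (edgeR adjusted p = 0.67 and 0.96). The neutrophil marker sum was highest in the same 2 libraries as these chains, at 17042 and 12055 CPM, and none of its 10 genes was called between the groups by edgeR; the part of neutrophil RNA in these levels was not tested. Without replicate 2 of both groups, Itgam had a log2 fold change of 0.97 (edgeR adjusted p = 0.00466) and Itgb2l one of 0.55 (edgeR adjusted p = 0.403).

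**Figure D2:**
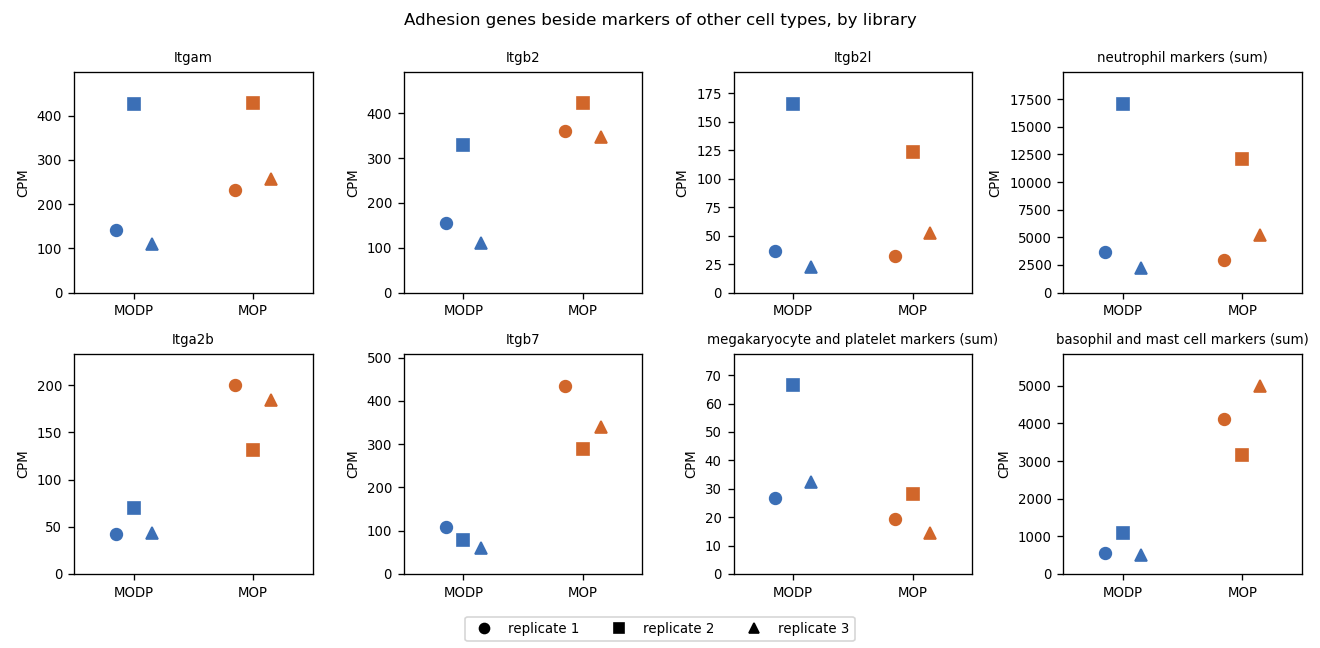
CPM by library for 5 integrin chains and for the summed markers of 3 other cell types, with a linear axis from 0 in every panel. Itgam and Itgb2l peak with the neutrophil sum in replicate 2 (squares), and Itga2b and Itgb7 are higher in MOP (orange) as the basophil and mast cell sum is, while the megakaryocyte and platelet sum is not.

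Copies and overlaps bear on these chains. Of the 31-mers of the longest Itgam transcript in GENCODE M21, 74.1% occur in other genes, 72.9% in Gm49368, a gene model that overlaps it on the same strand. Gm49368 has no row in the deposited table, and 0.946% of the 31-mers of Itgam occur in genes that do. For Itgax and Itgad, 12.7% and 14.7% of 31-mers occur in genes of the table. Itgax was at 25.5, 16.9 and 11.5 CPM across MODP and 23.2, 20.9 and 18.1 CPM across MOP, and Itgad at 2.96, 4.99 and 1.97 against 2.72, 7.11 and 5.92 CPM. Both overlapped between the groups and missed the threshold (edgeR adjusted p = 0.63 and 0.28).

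The windows upstream of Itgam and Itgb2l are shown as those of the chains that peaked in replicate 2, at chr7:128062390-128062639 (+ strand) and chr16:96443615-96443864 (- strand), in the same build, length and marking as above.
Itgam: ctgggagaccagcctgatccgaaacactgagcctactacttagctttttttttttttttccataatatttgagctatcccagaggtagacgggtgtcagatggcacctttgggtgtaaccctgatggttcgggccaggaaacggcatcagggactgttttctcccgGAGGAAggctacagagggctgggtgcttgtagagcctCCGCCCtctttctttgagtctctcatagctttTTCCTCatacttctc
Itgb2l: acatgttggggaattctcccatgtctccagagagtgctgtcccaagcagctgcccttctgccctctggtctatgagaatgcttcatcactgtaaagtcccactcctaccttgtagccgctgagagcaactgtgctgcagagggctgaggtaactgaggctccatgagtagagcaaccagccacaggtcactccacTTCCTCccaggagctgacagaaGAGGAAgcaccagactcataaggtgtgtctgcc
Each holds GAGGAA or its reverse complement 2 times, and the Itgam window also holds the reverse complement of GGGCGG. A match of this kind is a description of the letters and not a binding site.

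The make-up of the chain transcripts differed between the groups. Summed over the 15 alpha chains, the level was 152, 210.3 and 139 CPM per kilobase in the MODP libraries and 238, 249 and 235 in the MOP libraries; summed over the 8 beta chains it was 178, 259 and 145 against 382, 367 and 347. Both sums were higher in every MOP library. Itgb7 made up 10.9% to 22.1% of the beta chain sum in MODP and 28.4% to 41.2% in MOP, and Itgb1 28.0% to 50.4% in MODP and 21.5% to 23.4% in MOP. Among alpha chains the share of Itga2b was 5.04% to 6.13% in MODP and 9.63% to 15.4% in MOP, and that of Itga4 11.2% to 17.1% in MODP and 9.84% to 10.5% in MOP. These shares are descriptions with no test; the exon lengths come from all GENCODE M21 transcripts of a gene, which understates levels of genes with long rare exons.

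**Figure D3:**
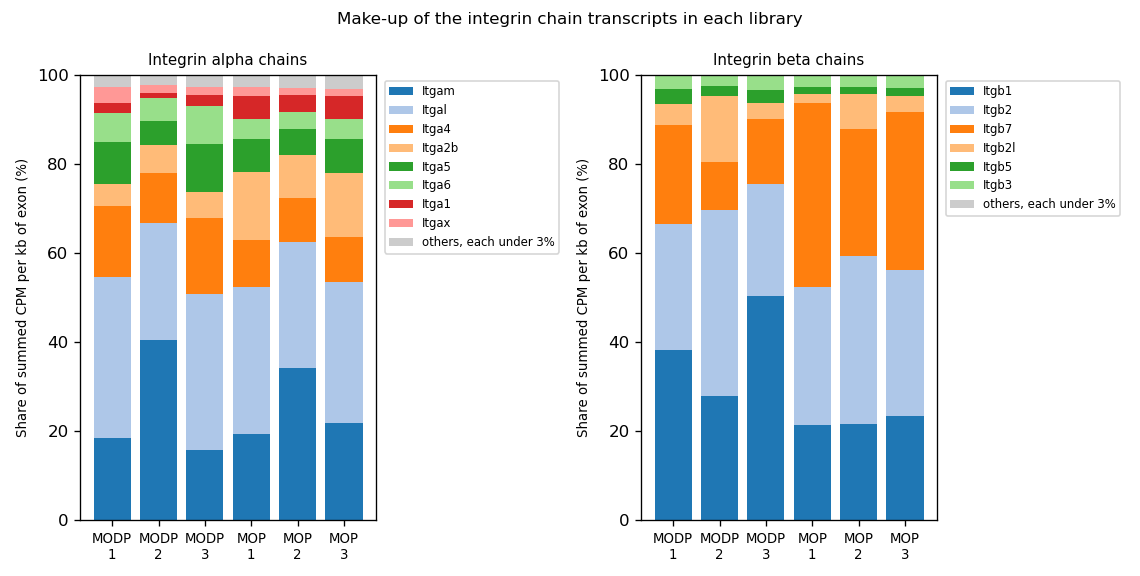
Stacked bars of the share of each integrin chain in the summed CPM per kilobase of exon, for alpha chains (left) and beta chains (right), 1 bar per library. Itgb7 takes 28.4% to 41.2% of the beta chain sum in MOP and at most 22.1% in MODP, and Itgam takes its largest shares in replicate 2 of both groups.

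Among the remaining alpha chains, Itga5, the fibronectin receptor chain, was at 70.7, 56.7 and 74.1 CPM across MODP and at 87.0, 73.1 and 89.0 CPM across MOP. The ranges overlapped and the test was not passed (log2 fold change 0.30 ± 0.12 SE, edgeR adjusted p = 0.083), although each MOP library was above the MODP library of its number, and with the replicate number as a block the edgeR adjusted p was 0.00235; without MOP replicate 2 it was 0.0482. Itga6, a laminin receptor chain, stood at 90.03 to 107 CPM across MODP and 85.0 to 96.1 CPM across MOP (edgeR adjusted p = 0.42). Its epithelial partner Itgb4 was at 1.05 to 2.63 CPM across MODP and 0.683 to 1.28 CPM across MOP; the edgeR adjusted p was 0.12, 0.0305 with the replicate number as a block and 0.0414 without MODP replicate 3. Itga9 had 11 to 37 counts a library and did not pass (edgeR adjusted p = 0.36). Itga3, Itga7 and Itgb8 were not tested: Itga3 had 1 to 5 counts a library, Itga7 a single count in 2 libraries and Itgb8 a single count in 1. A count of 0 allows a level of up to 0.192 to 0.282 CPM in these libraries, for counting error only.

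Selplg, which encodes the mucin PSGL-1 that all 3 selectins bind, rose from 391, 322 and 322 CPM across MODP to 715, 579 and 670.1 CPM across MOP. The groups were wide apart, at 1.90-fold (log2 fold change 0.92 ± 0.10 SE, edgeR adjusted p = 0.00080), and 7.5% of its 31-mers occur in other genes of the table. Cd44, the hyaluronan receptor, which can also bind E-selectin, stood at 311, 354 and 319 CPM across MODP and at 388, 413 and 378 CPM across MOP. Its libraries did not overlap (log2 fold change 0.26 ± 0.07 SE, edgeR adjusted p = 0.018), but the call was lost without MODP replicate 1, MODP replicate 3, MOP replicate 1 or MOP replicate 2 (range of edgeR adjusted p over the 6 such fits 0.00285 to 0.073).

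Genes that make or read selectin ligands were higher in part. Of 26 such genes 24 were in the table and 23 were tested; 11 of them were called higher in MOP, 2 lower and 10 neither, beside 16.3% higher and 14.9% lower over all tested genes. The higher genes included C1galt1c1, the chaperone of the core O-glycan galactosyltransferase, at log2 1.38 ± 0.10 (SE), Gcnt1, which branches those glycans, at 0.65 ± 0.08, and the galactosyltransferase gene B4galt1 at 0.37 ± 0.05 (edgeR adjusted p = 0.00022, 0.0011 and 0.0016). The fucosyltransferase genes Fut7 and Fut4 missed the threshold (edgeR adjusted p = 0.40 and 0.84). The lower genes were Cd34, a stem cell mucin that can carry selectin ligands, with a log2 fold change of -1.11 ± 0.10 (SE), and Tsta3, which makes GDP-fucose, at -0.23 ± 0.07 (edgeR adjusted p = 0.00039 and 0.028). Without MODP replicate 1 the higher genes were 6, beside 11.2% of all tested genes. Without MODP replicate 3 or MOP replicate 1 they were 7, beside 11.8% and 9.75%. The lower genes were 1 in 5 of the 6 fits without a library, and the exception left out MODP replicate 2. In those 5 fits, 7.89% to 10.3% of all tested genes were lower.

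Of the 8 immunoglobulin-type ligands and junction molecules, 1 was called lower and 0 higher, and this 12.5% was near the 14.9% of all tested genes called lower. Icam2, a ligand of LFA-1 and the only member called lower in the main test, stood at 40.5, 40.0 and 46.0 CPM across MODP and at 29.2, 31.8 and 30.9 CPM across MOP. No MOP library reached the MODP range, and it fell by 0.46 ± 0.08 (SE) on the log2 scale (edgeR adjusted p = 0.0042). Icam1, the other ICAM member, was at 17.1 to 23.2 CPM across MODP and 21.5 to 25.8 CPM across MOP and did not pass (log2 fold change 0.27, 95% confidence interval -0.02 to 0.56, edgeR adjusted p = 0.14). Cd47, the marker that restrains phagocytes through Sirpa, was lower in MOP in all 3 numbers, at 363, 384 and 360.4 CPM against 339, 349 and 336 CPM. It did not pass (edgeR adjusted p = 0.13), except under upper-quartile scaling (edgeR adjusted p = 0.0373). Pecam1, a homophilic receptor, stood at 132 to 162 CPM across MODP and 134 to 164 CPM across MOP (log2 fold change 0.03, 95% confidence interval -0.19 to 0.25, edgeR adjusted p = 0.84).

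Vcam1, the ligand of the integrin formed by Itga4 and Itgb1, was at 40.6, 66.9 and 38.2 CPM across MODP and at 25.8, 71.5 and 51.6 CPM across MOP. It overlapped widely and peaked in both replicate 2 libraries (edgeR adjusted p = 0.96). The sum of the resident macrophage markers was 112 to 189 CPM across MODP and 143 to 273 CPM across MOP, highest in replicate 2 of each group. Vcam1 is itself in that sum, with 66.9 of the 189 CPM and 71.5 of the 273 CPM there. The sum therefore follows Vcam1 in part by its make-up. The junction molecules Esam and F11r were near 1 CPM across MODP, with 12 to 23 and 9 to 19 counts a library, and lower in every MOP library, with 1 to 13 and 2 to 11 counts. Neither passed (edgeR adjusted p = 0.099 and 0.062). Esam was called once the replicate number was blocked (edgeR adjusted p = 0.0148) and without MOP replicate 2 (edgeR adjusted p = 0.034), and F11r without MODP replicate 2 or MOP replicate 2 (edgeR adjusted p = 0.0459 and 0.0249). The sum of 10 T and NK cell markers, 6 of them called lower, was lower in every MOP library as well, at 230 to 297 CPM across MODP and 81.9 to 115 CPM across MOP, and most of it was Nkg7. Of the 10 endothelial and stromal markers 0 were called higher and 1 lower, and their sum was 36.2 to 3113 CPM across MODP and 23.9 to 420.4 CPM across MOP. The marker called lower was the pericyte gene Pdgfrb, at 24.5, 22.5 and 25.5 CPM against 5.74, 7.24 and 4.78 CPM (edgeR adjusted p = 0.00023). The endothelial receptor gene Tek was lower in every MOP library too, at 1.62 to 2.06 against 0.379 to 1.47 CPM (edgeR adjusted p = 0.10). Cxcl12 of the same list went the other way and was higher in every MOP library. It stood at 1.81, 1.22 and 0.492 CPM across MODP and at 6.55, 29.6 and 2.35 CPM across MOP (edgeR adjusted p = 0.097). Emcn, Cdh5 and Kdr overlapped between the groups at 3.78 CPM or less. These single markers were picked out after their values were seen, and the part of other cells in the low levels of Esam and F11r was not tested. Jam3 was at 1.67 to 3.17 CPM in all libraries (edgeR adjusted p = 0.97).

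Tln1, which encodes talin-1, the protein that links beta chain tails to actin, had the highest level per kilobase of all members in every library. It stood at 1437, 1426 and 1370.1 CPM across MODP and at 1997, 1777 and 1933 CPM across MOP, a 1.35-fold difference without overlap (log2 fold change 0.43 ± 0.06 SE, edgeR adjusted p = 0.0014). Fermt3, which encodes kindlin-3, varied little: 386, 381 and 377 CPM across MODP against 405, 405 and 400.0 CPM across MOP. All 3 MOP values were above the MODP values, yet the test was not passed (log2 fold change 0.08, 95% confidence interval -0.03 to 0.19, edgeR adjusted p = 0.22).

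**Figure D4:**
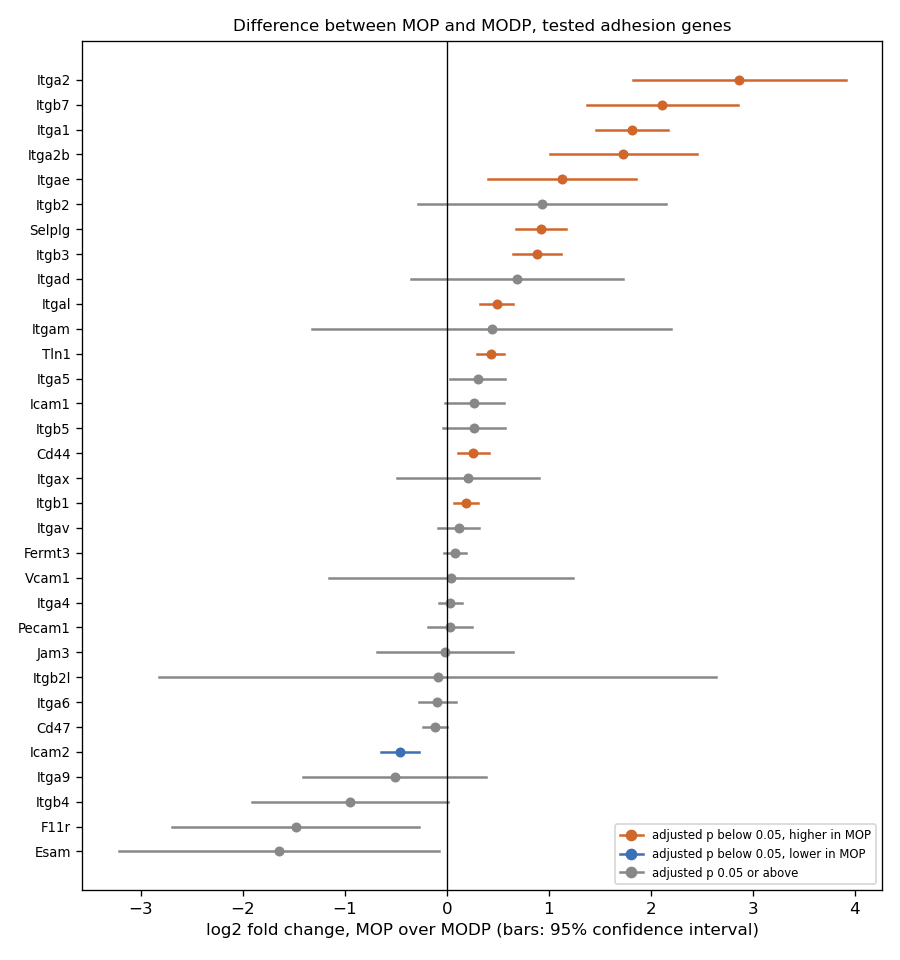
Log2 fold change of MOP over MODP for the 32 tested members (points) with 95% confidence intervals from the edgeR fit (bars), coloured by the adjusted p. The called members range from Icam2 at -0.46 to Itga2 at 2.87, and the 3 widest intervals belong to Itgb2l, Itgam and Esam.

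Signalling genes that act with integrins were followed as a list. Of 48 genes, 42 were tested; 10 of them were called higher in MOP, 6 lower and 26 neither, with a median log2 fold change of 0.16. That is 23.8% higher and 14.3% lower, beside 16.3% and 14.9% of all tested genes, so the lower share was near that of all genes. DESeq2 and the column number as a block each called 15 higher, beside 16.2% and 21.2% of all tested genes. The higher genes included Flna, a filamin that cross-links actin and binds beta chain tails, which rose from 1735 ± 205 to 2954 ± 52.1 CPM (SD, n = 3), and Parvb, an actin-binding parvin, which rose from 15.02 ± 3.83 to 45.8 ± 4.07 CPM. The kinase gene Lyn rose by log2 0.73 ± 0.10 (SE; edgeR adjusted p = 0.00052, 0.0012 and 0.0013 for the 3 genes). The lower genes included Sipa1l1, a Rap GTPase-activating protein, with a log2 fold change of -0.77 ± 0.09 (SE), the leukocyte parvin gene Parvg, at -0.23 ± 0.05, and the tetraspanin gene Cd81, at -0.74 ± 0.14 (edgeR adjusted p = 0.00069, 0.0084 and 0.0088). Without MODP replicate 1 or MOP replicate 1, 5 of the 42 were higher, beside 11.2% and 9.75% of all tested genes. Without MODP replicate 3 or MOP replicate 2, 6 were higher, beside 11.8% and 12.2%. In the fits with 5 or 6 higher genes, the share of the list was near that of all genes. Without MODP replicate 2, 18 were higher, beside 19.3%. The lower genes were 3 without MODP replicate 3 or MOP replicate 1, beside 9.92% and 7.89%.

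Adhesion ligands and counter-receptors, not all of them ligands of integrins, were followed as a further list. Of 32 genes 30 were in the table and 21 were tested; 8 of them were called higher in MOP, 1 lower and 12 neither, with a median log2 fold change of 0.27. That is 38.1% higher and 4.76% lower, beside 16.3% and 14.9% of all tested genes. Among those with the smallest adjusted p were Lamb1, a laminin chain, which rose from 0.317 ± 0.221 to 7.35 ± 2.17 CPM (SD, n = 3), the disintegrin metalloprotease gene Adam15, which rose by log2 0.75 ± 0.08 (SE), and Sirpa, the receptor of Cd47, which rose by log2 0.61 ± 0.08 (edgeR adjusted p = 0.00041, 0.00050 and 0.0014). Cdh1, which encodes E-cadherin, the ligand of the integrin formed by Itgae and Itgb7, stood at 15.7, 21.2 and 11.7 CPM across MODP and at 185, 117 and 174 CPM across MOP (edgeR adjusted p = 0.0016); it was picked out after its values were seen. The lower gene was Emilin1, an elastin-linked matrix glycoprotein and ligand of Itga4 with Itgb1, with a log2 fold change of -0.39 ± 0.08 (SE) (edgeR adjusted p = 0.0086). The lower genes were 3 without MOP replicate 2, beside 10.3% of all tested genes. The basophil and mast cell sum was higher in every MOP library here too, and its part in these rises was not tested.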

How the data were processed

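TruSeq RNA libraries were made from RNA of sorted progenitors, per the labels' protocols. The deposited table holds raw counts of reads per Ensembl gene, made by the authors with TopHat 1.4 and HTSeq, per the submitters' processing notes; their genome build, annotation and strand setting are not known from those notes. Symbols, exon lengths and 31-mers came from GENCODE M21, which named 20840 of 22271 identifiers; promoter windows came from RefSeq (GRCm38.p6).

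Groups follow the cell type label. Genes kept by filterByExpr (12850) were tested with edgeR 4.0.16 (TMM, robust quasi-likelihood fit, group alone), with Benjamini-Hochberg adjustment over all of them and a threshold of 0.05. Alternatives were DESeq2 1.42.0, upper-quartile scaling, no filter, a filter of 1 CPM in 3 libraries, each library left out, both replicate 2 libraries left out, and the column or title number as a block. On simulated counts for 12677 genes of this comparison, the test found 54.2% of the 48 genes given a 1.5-fold change and 80% of 50 given 2-fold. It found 100% of 50 given 4-fold and 97.9% of 48 given 8-fold, and 13 of its 176 calls were false. The simulation changed 200 genes and drew each library independently. In the data 31.2% of tested genes were called and libraries of equal column number correlated, so these rates need not hold for the real fit.

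Titles number the samples WT1, WT2 and WT1 within a group, and the deposited columns number them 1, 2 and 3. Across groups, the deviations from group means correlated at 0.589, 0.607 and 0.507 for equal column numbers and at -0.449 to 0.0503 for unequal ones (9351 genes), so the column numbers were taken as pairs. The main fit has no block, and the blocked value stands beside each member whose call it changed. Chi-square per degree of freedom between libraries of a group was 7.87 to 37.6, more than sampling noise. Separate animals are not stated, and the p-values therefore rest on library-to-library spread that may be technical.

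The members and lists were chosen with earlier results of these data known. Named genes were all members, up to 3 called genes per direction of each pathway list by smallest adjusted p, Cd27, and marker sums; other single genes were picked for their role or after their values were seen. The 4 motifs were chosen after the values were seen. Marker lists for B and plasma cells (59.5 to 140 CPM across MODP, 62.4 to 161 CPM across MOP) and erythroid cells (171 to 596 against 419 to 728 CPM) were summed too. Some genes that the rules take are not reported here.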

Additional observations from a re-analysis of the deposited data

How the results depend on the processing

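Of the 32 tested members, 14 kept direction and call in all 13 alternatives that gave a value, among them Itga1, Itga2, Itgal, Itgb3, Selplg, Icam2 and Tln1. The count of lower members, 1 in the main test, was 2 under upper-quartile scaling and 3 without both replicate 2 libraries and with the column or the title number as a replicate block. Leaving out each library in turn gave 7 to 11 higher and 1 to 3 lower members, 5 to 18 higher and 3 to 5 lower integrin signalling genes, 6 to 12 higher and 1 to 3 lower selectin genes, and 6 to 8 higher and 1 to 3 lower ligand genes. Over the same fits, 9.75% to 19.3% of all tested genes were higher and 7.89% to 17.4% lower. Without both replicate 2 libraries 18 signalling genes were higher and 3 ligand genes lower, beside 18.4% and 15.6% of all tested genes. With no filter on low counts 1 selectin gene was lower, beside 8.33%. The cause was not tested.

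Directions reversed only for members that did not pass the main test. Under upper-quartile scaling the log2 fold changes of Itga4, Pecam1 and Vcam1 were -0.021, -0.023 and -0.014. Over the 6 fits without a library, the log2 fold change ran from -0.040 to 0.55 for Itgax, -0.80 to 1.26 for Itgb2l, -0.041 to 0.11 for Pecam1, -0.32 to 0.35 for Vcam1 and -0.19 to 0.21 for Jam3. Without both replicate 2 libraries it was 0.55 for Itgb2l and -0.025 for Vcam1. With the column number as a replicate block it was 0.15 for Itgb2l and -0.015 for Vcam1, and with the title number 0.18 for Itgb2l. The column block changed the calls of Itga2b, Itga5, Itgb4 and Esam and of no other member; the title block changed those of Itga5, Esam and F11r (edgeR adjusted p = 0.00325, 0.0125 and 0.0455). Depth limits Itgae, Itga9, Itgb4, Esam and F11r, which had at most 37 counts in any library.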
